A study of Mus musculus with 8 samples.

Results

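The 8 genes described here, all of the signaling lymphocytic activation molecule (SLAM) receptor family, were measured in mouse bone marrow-derived dendritic cells (BMDC). They are Slamf1, Slamf6, Slamf7, Slamf8, Slamf9, Cd48, Cd84 and Ly9. They make up 8 of the 55487 gene identifiers in the count table and were found by their Ensembl mouse identifiers. The family was chosen by the strong fall of Slamf1 between the groups compared, so the Slamf1 difference is described here and not tested. All 8 members passed the filter on low counts, as did 15411 genes in all. Slamf1 passed it through the untreated cells and the higher pair of libraries of the other group.

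The 8 libraries form 2 groups of 4. The first, BMDC, are wild-type cells of C57BL/6 mice grown from marrow progenitors with the growth factor GM-CSF for 10 days, with no treatment. The second, BMDC-fer, are wild-type cells of the same source and culture that were exposed for some hours to ferroptotic Jurkat cells and then sorted, so that only BMDC that had engulfed a corpse were sequenced. Jurkat cells are an established cell line from a human T-cell leukemia. Ferroptosis is a form of cell death driven by lipid peroxidation, here set off with ML162, a compound that blocks the enzyme GPX4. The methods describe neither a co-culture nor a sort for BMDC, so cargo uptake, co-culture and sorting cannot be told apart in the comparison. GM-CSF cultures are mixtures of dendritic cells, macrophage-like cells and remaining granulocytes. In bulk RNA, fewer cells of a type and less RNA per cell cannot be told apart. The paper calls the libraries of a group independently collected, while the labels name no animals or cultures behind the replicate numbers, so the p-values measure the spread between these libraries.

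SLAM receptors are membrane proteins of immune cells with immunoglobulin-like domains outside the cell. Most of them bind the same receptor on a neighboring cell, whereas CD48 is anchored in the membrane by a lipid and is the ligand of CD244. Tyrosine switch motifs in the tails of SLAMF1, SLAMF6, CD84, LY9, SLAMF7 and CD244 recruit the small adaptors of the SH2D1 family, which in turn bring in Src family kinases such as FYN or oppose phosphatases. SLAMF8 and SLAMF9 have short tails that lack this motif. In macrophages and dendritic cells, SLAMF1 is known as a sensor of bacteria that enters the phagosome, SLAMF7 as a receptor in the engulfment of blood cancer cells, and SLAMF8 as a brake on the phagocyte oxidase.

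All 8 members lie on chromosome 1 (build mm10, GENCODE M21 gene models). From the proximal end the order is Ly9 (chr1:171588624-171607410, minus strand), Slamf7 (chr1:171632403-171653035, minus strand), Cd48 (chr1:171682009-171705258, plus strand), Slamf1 (chr1:171767127-171801184, plus strand), Cd84 (chr1:171839697-171890718, plus strand), Slamf6 (chr1:171917515-171953170, plus strand), Slamf9 (chr1:172475358-172478575, plus strand) and Slamf8 (chr1:172581758-172590568, minus strand). Cd244a, the gene of the CD48 receptor, spans Ly9 on the opposite strand (chr1:171559193-171609746), and the 2 genes share 0 exon bases. Use of strand in the counting is not given in the sources used here. Gm37787, an antisense gene, covers 423 exon bases of Slamf7, or 9.24% of its exon length, and held between 19 and 61 counts per library. The longest transcript of Slamf1 shares 3.32% of its words of 50 bases with transcripts of other mouse genes. Human transcripts were not searched, and ambiguity of the Slamf1 reads was not tested.

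The start regions of 4 members are printed because these genes had the log2 fold changes farthest from 0, below it for Slamf1 and Slamf9 and above it for Slamf6 and Slamf8. Each runs from 250 bases before to 50 bases after the annotated start (RefSeq, GRCm38.p6), 5′ to 3′ on the strand of the gene. The table of start regions held 7 of the 8 members, without Ly9. Capitals mark matches, on either strand, to the PU.1 core GAGGAA, the interferon-stimulated response element, the E-box CACGTG, the AP-1 site TGANTCA and the NF-kB site.
Slamf1, chr1:171766882-171767181, plus strand: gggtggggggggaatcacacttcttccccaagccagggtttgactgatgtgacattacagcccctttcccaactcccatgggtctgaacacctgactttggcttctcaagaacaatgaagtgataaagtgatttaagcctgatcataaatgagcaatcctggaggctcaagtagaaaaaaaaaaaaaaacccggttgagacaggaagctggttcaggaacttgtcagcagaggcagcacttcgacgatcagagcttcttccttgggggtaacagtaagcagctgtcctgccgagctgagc
Slamf9, chr1:172475110-172475409, plus strand: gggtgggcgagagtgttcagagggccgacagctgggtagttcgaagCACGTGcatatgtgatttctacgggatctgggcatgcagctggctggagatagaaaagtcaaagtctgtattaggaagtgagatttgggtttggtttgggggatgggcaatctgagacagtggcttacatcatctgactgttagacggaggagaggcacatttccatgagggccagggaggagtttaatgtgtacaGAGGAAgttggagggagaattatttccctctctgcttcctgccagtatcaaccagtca
Slamf6, chr1:171917212-171917511, plus strand: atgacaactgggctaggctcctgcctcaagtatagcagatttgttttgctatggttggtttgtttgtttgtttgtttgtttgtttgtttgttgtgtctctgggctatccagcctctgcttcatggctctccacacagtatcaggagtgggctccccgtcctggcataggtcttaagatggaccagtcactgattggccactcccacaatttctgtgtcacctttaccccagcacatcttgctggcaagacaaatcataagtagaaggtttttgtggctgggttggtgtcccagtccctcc
Slamf8, chr1:172590519-172590818, minus strand: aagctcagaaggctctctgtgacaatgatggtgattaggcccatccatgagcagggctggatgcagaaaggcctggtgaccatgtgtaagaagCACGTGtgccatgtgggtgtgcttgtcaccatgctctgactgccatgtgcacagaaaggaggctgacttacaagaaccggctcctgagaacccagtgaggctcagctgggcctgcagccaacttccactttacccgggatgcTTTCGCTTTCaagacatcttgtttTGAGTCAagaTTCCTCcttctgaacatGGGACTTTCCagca
None of the 5 motifs matched in the windows of Slamf1, Slamf6 and Cd48. The Slamf9 window held the PU.1 core and the E-box, which 28.3% and 7.15% of the 32851 start regions in the table hold. The Slamf8 window held all 5, among them the response element, which 3.44% of start regions hold, the AP-1 site, which 7.81% hold, and the NF-kB site, which 8.46% hold. The AP-1 site also stood in the windows of Slamf7 and Cd84, and the PU.1 core in that of Cd84. These matches are letters in a window, and nothing was measured at them.

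The transcripts of the family differed widely in level. Levels between genes are given per kilobase of exon, from CPM, the counts scaled to library size after normalization by the trimmed mean of M-values (TMM). In BMDC, Cd48 stood highest at 76.1 ± 13.6 CPM per kilobase (SD, n = 4), followed by Cd84 at 47.8 ± 7.52. Below them lay Slamf9 at 26.4 ± 11.8, Ly9 at 16.4 ± 3.33 and Slamf7 at 12.9 ± 1.26 CPM per kilobase. Slamf8 reached 2.77 ± 1.21 CPM per kilobase, Slamf1 0.605 ± 0.339 and Slamf6 0.375 ± 0.0783. The ranges over libraries of Cd84 and Slamf9, of Slamf9 and Ly9, of Ly9 and Slamf7, and of Slamf1 and Slamf6 overlapped, so these neighbors were not separated, while the remaining neighbors were. In BMDC-fer the order was Cd48, Cd84, Ly9, Slamf9, Slamf7, Slamf8, Slamf6 and Slamf1. There, Slamf1 was the lowest member at 0.0813 ± 0.0962 CPM per kilobase, and every Slamf6 value, the mean being 0.798 ± 0.299, lay above every Slamf1 value. The ranges of Ly9 and Slamf9, of Slamf9 and Slamf7, and of Slamf7 and Slamf8 overlapped in BMDC-fer.

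**Figure D1:**
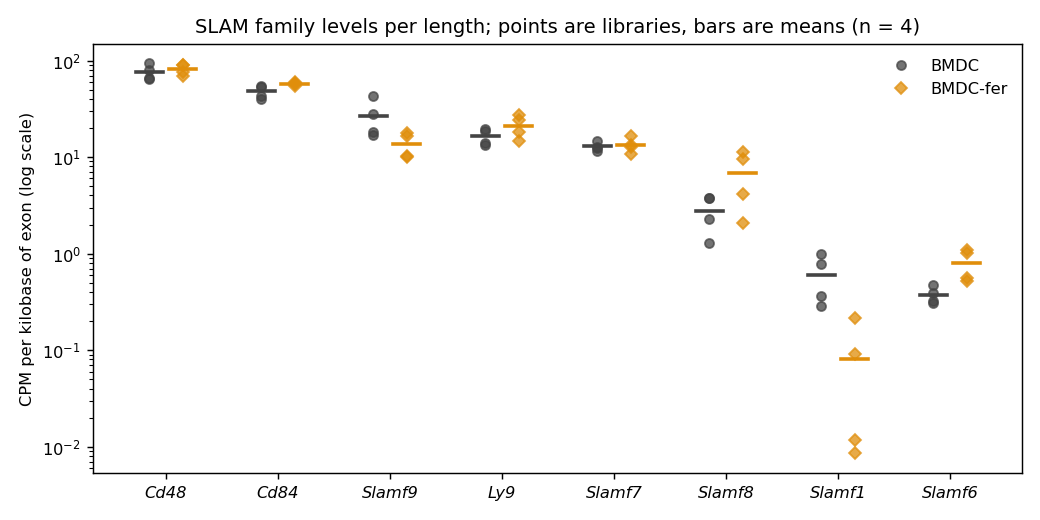
Level of each SLAM family gene per kilobase of exon (CPM per kilobase, log axis) in the 4 BMDC libraries (gray circles) and the 4 BMDC-fer libraries (orange diamonds), with the group means as bars. Cd48 and Cd84 lie highest in both groups, and Slamf1 has the mean of 0.605 in BMDC and 0.0813 in BMDC-fer, where it is the lowest member.

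Summed over the 8 members, the family held between 529 and 572 CPM in BMDC and between 599 and 679 CPM in BMDC-fer. Cd84 alone made up between 45.4% and 63.0% of this sum in each library, and Slamf1 made up between 0.00856% and 1.12%. The total therefore says little about the low members, which are taken up gene by gene below.

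Slamf1 codes for the self-binding receptor after which the family is named. Its level was 6.11, 4.82, 2.22 and 1.75 CPM in BMDC replicates 1 to 4, against 1.32, 0.563, 0.072 and 0.052 CPM in BMDC-fer replicates 1 to 4. The highest BMDC-fer value was under the lowest BMDC value, and replicates 1 and 2 lay above replicates 3 and 4 in both groups. The means were 3.72 ± 2.09 and 0.501 ± 0.592 CPM (SD, n = 4 each). The fitted log2 fold change was −2.86 with a standard error of 0.88, which ranked 123 from the lowest among the 15411 genes. These values chose the family and carry no test.

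The counts behind the low values are few. BMDC-fer replicates 3 and 4 held 3 and 2 Slamf1 counts, at or under the floor of 3 counts, where BMDC replicates 3 and 4 held 94 and 70. Over these 2 numbers the normalized ratio of BMDC to BMDC-fer was 31.8, with an exact 95% counting interval of 13.4 to 99.3. Over replicates 1 and 2, with 494 counts against 88, it was 5.58 with an interval of 4.44 to 7.08. Such intervals and floors describe counting error alone, because the reads carry no molecular identifiers and several may stem from the same molecule. Without BMDC-fer replicate 1, the library with the highest Slamf1 level of its group, the fitted log2 fold change was −3.99.

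**Figure D2:**
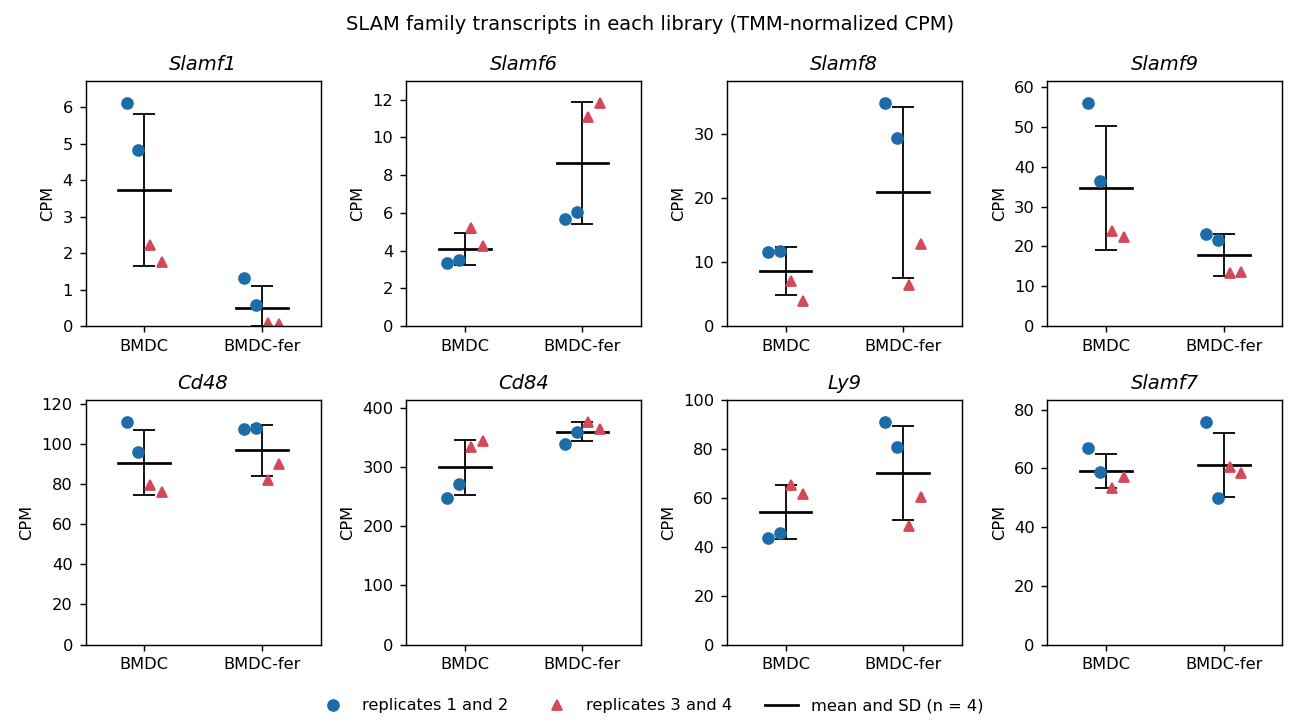
Normalized level (CPM, linear axes from 0) of each SLAM family gene in BMDC and BMDC-fer, with replicates 1 and 2 as blue circles, replicates 3 and 4 as red triangles, and the mean and SD of the 4 libraries in black. The groups do not overlap for Slamf1, which is lower in BMDC-fer, and for Slamf6, which is higher, whereas the other 6 genes overlap between groups.

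Slamf6 went the other way. Its product, also known as Ly108, is a self-binding receptor best known from T cells and NK cells. The level was 3.34, 3.47, 5.18 and 4.27 CPM in BMDC replicates 1 to 4 and 5.69, 6.02, 11.1 and 11.8 CPM in BMDC-fer replicates 1 to 4. All BMDC-fer libraries lay above all BMDC libraries, with means of 8.65 ± 3.24 and 4.07 ± 0.848 CPM (SD, n = 4 each). Slamf6 rose with a log2 fold change of 1.09 (SE 0.29, 95% interval 0.42 to 1.75, edgeR adjusted p = 0.0456), and the two-sided exact permutation test gave the smallest p that 4 against 4 allows, 0.0286. The rise was 0.79 in replicates 1 and 2 alone and 1.29 in replicates 3 and 4 alone on the log2 scale. The call sat close to the threshold. It was lost when any library other than BMDC-fer replicate 1 was left out, with edgeR adjusted p between 0.0392 and 0.122 over the 8 fits. With the replicate number as a block the adjusted p was 0.0189, and with DESeq2 it was 0.00401.

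Markers of lymphocytes were read beside Slamf6, because these cells also express it. Of 12 T-cell markers, 3 passed the filter and 0 were called by edgeR. Of these, 1, Cd3g, was lower at an unadjusted p under 0.05, by DESeq2 and with the replicate block. Of all tested genes edgeR called 9.38%, DESeq2 14.7% and the fit with the block 13.0%, and the share at the unadjusted level was not counted. The T-cell markers summed to 36.0 to 43.3 CPM in BMDC and 35.1 to 56.3 CPM in BMDC-fer, most of it Cd28. Lat came second in BMDC replicates 3 and 4, at 9.46 and 8.66 CPM. Cd3g reached 4.40 CPM in BMDC replicate 1 and at most 0.465 CPM in any BMDC-fer library. Cd247, which did not pass the filter, averaged 0.156 CPM in BMDC against 0.245 CPM in BMDC-fer. Of the 12, Rag1 and Bcl11b alone were at 0 counts in all 8 libraries, which allows up to 3 counts or between 0.0594 and 0.0763 CPM. The engulfed Jurkat cells are themselves of T-cell origin, and a part of human reads in these values was not tested. The summed level of the 5 B-cell markers was at most 1.44 CPM in BMDC against 0.602 CPM in BMDC-fer, and that of the 4 NK-cell markers at most 0.553 and 0.344 CPM.

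Slamf9 and Slamf8 are the members without switch motifs, and they differed in opposite directions. Slamf9, a gene of macrophages and dendritic cells, stood at 55.9, 36.5, 23.9 and 22.4 CPM in BMDC replicates 1 to 4 and at 23.1, 21.5, 13.2 and 13.6 CPM in BMDC-fer replicates 1 to 4. BMDC-fer was lower in each of the 4 numbers, and the groups overlapped only because the highest BMDC-fer library exceeded the lowest BMDC library. The log2 fold change of −0.96 (SE 0.33, 95% interval −1.70 to −0.22) did not pass the test, with an edgeR adjusted p of 0.0898 and an exact permutation p of 0.0571. It passed with the replicate number as a block, where it was −0.90 with an edgeR adjusted p of 0.0114. It also passed with DESeq2, at an adjusted p of 0.0322.

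Slamf8 stood at 11.5, 11.7, 7.0 and 3.97 CPM in BMDC replicates 1 to 4 and at 34.7, 29.4, 6.45 and 12.8 CPM in BMDC-fer replicates 1 to 4. The level was higher in BMDC-fer in 3 of the 4 numbers, with number 3 slightly lower, and the means were 20.8 ± 13.4 against 8.53 ± 3.73 CPM. The log2 fold change of 1.29 (SE 0.54, 95% interval 0.06 to 2.51) was the highest of the family but did not pass the test (edgeR adjusted p = 0.148, or 0.0614 once the replicate number was a block). In replicates 1 and 2 alone it was 1.48 with an edgeR adjusted p of 0.00223, and in replicates 3 and 4 alone it was 0.82. The summed level of 11 macrophage markers was 2830 to 4168 CPM in BMDC and 3460 to 5665 CPM in BMDC-fer; its part in the Slamf8 values was not tested.

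Ly9 codes for a self-binding receptor found on many leukocytes. It stood at 43.6, 45.8, 65.3 and 61.8 CPM in BMDC replicates 1 to 4 and at 91.2, 80.9, 48.6 and 60.2 CPM in BMDC-fer replicates 1 to 4. BMDC-fer was higher in numbers 1 and 2 and lower in numbers 3 and 4. Over all libraries the log2 fold change of 0.38 (SE 0.22, 95% interval −0.13 to 0.88) did not pass the test, with an edgeR adjusted p of 0.285. In replicates 1 and 2 alone it was 0.95, and in replicates 3 and 4 alone it was −0.21. The difference of −1.17 between these effects passed the edgeR test of the interaction (adjusted p = 0.000736). The split into these replicate pairs was taken from earlier results of these data and not from a label, so this p is a description. The interaction test ended below an adjusted p of 0.05 for 37.8% of all tested genes and for 1 of the 7 members other than Slamf1.

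The remaining members, Cd84, Cd48 and Slamf7, did not pass the test. Cd84, coding for a self-binding receptor of myeloid cells and platelets, stood at 248, 272, 334 and 345 CPM in BMDC replicates 1 to 4 and at 340, 360, 377 and 365 CPM in BMDC-fer replicates 1 to 4. It was higher in BMDC-fer in each number, with a log2 fold change of 0.27 (95% interval −0.03 to 0.56, edgeR adjusted p = 0.203). The Cd48 level ranged from 76.0 to 111 CPM in BMDC and from 82.1 to 108 CPM in BMDC-fer, and the fitted difference of 0.09 on the log2 scale had an interval of −0.25 to 0.44 (edgeR adjusted p = 0.705). Slamf7 ranged from 53.2 to 66.9 CPM in BMDC and from 49.8 to 75.9 CPM in BMDC-fer, with a log2 fold change of 0.05 and an interval of −0.27 to 0.37 (edgeR adjusted p = 0.833). The sign of the Cd48 and Slamf7 values turned when no scaling factors were used.

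Of the 7 members other than Slamf1, 1 was called higher by edgeR, 0 were called lower and 6 did not pass the test. At an unadjusted p under 0.05, 2 were higher and 1 was lower, but the share of all tested genes at this level was not counted. DESeq2 called 1 higher and 1 lower. Over all tested genes 9.38% were called, 3.47% higher and 5.91% lower. The groups did not overlap for 1 of the 7, Slamf6, against 22.9% of all tested genes, 11.3% being higher and 11.6% lower in BMDC-fer. The median log2 fold change of the 7 was 0.27, beside 0.000687 over all tested genes. With the replicate number as a block 2 of the 7 were called, Slamf6 and Slamf9, beside 13.0% of all tested genes, and DESeq2 called the same 2 beside 14.7%. DESeq2 with the block called 3, Slamf8 being added, beside 17.9%, and edgeR with a covariate for replicates 1 and 2 against 3 and 4 called these 3 beside 18.3%. Within replicates 1 and 2 alone 4 were called, with Ly9, beside 19.4%, and within replicates 3 and 4 alone 2 were called, Slamf6 and Slamf9, beside 35.7% of the genes tested there.

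**Figure D3:**
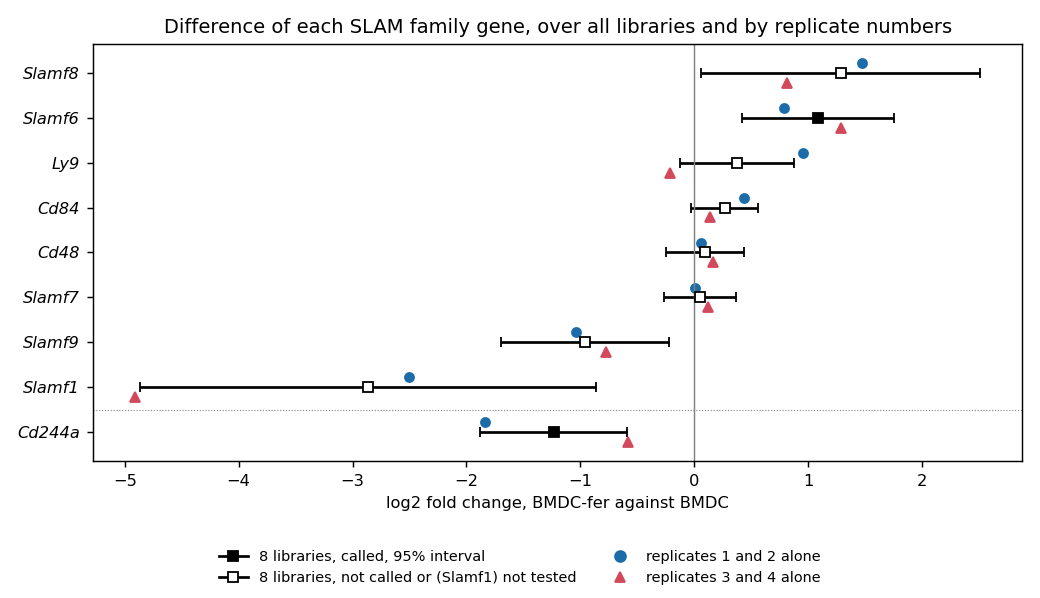
Log2 fold change of BMDC-fer against BMDC for the 8 members and, under the dotted line, Cd244a. Squares with 95% intervals are the fit over 8 libraries, filled where the gene was called; circles and triangles are the fits to replicates 1 and 2 alone and to replicates 3 and 4 alone. Slamf6 at 1.09 and Cd244a at −1.24 are the called genes, the Slamf1 value of −2.86 was not tested, and the Ly9 points lie on either side of 0.

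CD48 is the ligand of CD244, and the gene of this receptor, Cd244a, fell while Cd48 did not pass the test. Cd244a stood at 55.8, 42.4, 28.6 and 32.8 CPM in BMDC replicates 1 to 4 and at 17.6, 9.52, 20.5 and 20.1 CPM in BMDC-fer replicates 1 to 4. All BMDC-fer libraries were below all BMDC libraries, and the means were 16.9 ± 5.11 and 39.9 ± 12.1 CPM (SD, n = 4 each). The log2 fold change was −1.24 (SE 0.29, edgeR adjusted p = 0.0285, or 0.0419 once the replicate number was a block). It was −1.84 in replicates 1 and 2 alone and −0.58 in replicates 3 and 4 alone. The call was kept without BMDC replicate 3 or 4 and lost without any of the other 6 libraries, where the adjusted p reached 0.0663. Cd2, whose product also binds CD48 in the mouse, did not pass the filter, with means of 0.15 CPM in BMDC against 0.29 CPM in BMDC-fer.

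The SH2D1 adaptors were largely limited to Sh2d1b1. Sh2d1a, which codes for the adaptor SAP of T and NK cells, had 0 counts in all 8 libraries. Sh2d1b1, coding for EAT-2, stood at 38.1, 33.0, 24.6 and 23.4 CPM in BMDC and at 20.6, 24.5, 20.2 and 17.6 CPM in BMDC-fer. The fitted log2 fold change of −0.52 did not pass the test (SE 0.19, edgeR adjusted p = 0.0979). Sh2d1b2, coding for the related adaptor ERT, held between 0 and 9 counts and did not pass the filter.

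Among 12 kinases and phosphatases that act next to SLAM receptors, 2 were called lower, 0 higher and 10 did not pass the test. Over all tested genes, 5.91% were called lower and 3.47% higher. Fyn, the kinase recruited through SAP, stood at 62.5, 42.2, 30.8 and 29.5 CPM in BMDC replicates 1 to 4 and at 15.1, 10.1, 6.47 and 3.95 CPM in BMDC-fer replicates 1 to 4. As for Slamf1, replicates 1 and 2 were above replicates 3 and 4 in both groups, and the groups did not overlap. The log2 fold change of Fyn was −2.21 (SE 0.42, edgeR adjusted p = 0.0147), and the call was kept in each of the 18 alternatives, with adjusted p up to 0.0451. Lck, a kinase of T cells, was low throughout at 0.87 ± 0.452 CPM in BMDC against 0.287 ± 0.0884 CPM in BMDC-fer. Its call (log2 fold change −1.59, edgeR adjusted p = 0.0482) was kept only without BMDC replicate 1 or 2 among the 8 fits that leave out a library. Lyn, Syk and the phosphatases Ptpn6, Ptpn11 and Inpp5d were among those that did not pass the test, as was the highest of the list, Btk, at 0.37.

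Of 11 downstream genes, 1 was called lower and 0 higher, beside 5.91% lower and 3.47% higher over all tested genes. Pik3r1, a regulatory subunit of class I phosphoinositide 3-kinase, went from 156 ± 40.4 CPM in BMDC to 83.7 ± 7.34 CPM in BMDC-fer (log2 fold change −0.90, edgeR adjusted p = 0.0193). The call was lost without BMDC-fer replicate 3 or 4, and in replicates 1 and 2 alone the value of −0.42 was under the threshold, against −1.29 in replicates 3 and 4 alone. Prkcq, coding for protein kinase C theta, had the lowest value of the list at −1.92 and did not pass the test (edgeR adjusted p = 0.101), although it did with the replicate block (0.0131). It held 23, 9, 3 and 3 counts in BMDC-fer replicates 1 to 4, so the last 2 libraries were at the floor of 3 counts. Dok1, coding for a docking protein, had the highest value at 0.54 and did not pass either.

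SLAMF1 on phagosomes recruits the Beclin 1 lipid kinase complex, and SLAMF1 also binds the adaptor TRAM. Of 12 genes of these partners and of the phagocyte oxidase, 2 were called lower, 0 higher and 10 did not pass. The shares over all tested genes were 5.91% lower and 3.47% higher. Uvrag, a subunit of the Beclin 1 complex, stood at 57.7, 56.2, 82.3 and 81.7 CPM in BMDC and at 43.5, 39.8, 38.5 and 37.4 CPM in BMDC-fer. The BMDC-fer libraries all lay below the BMDC libraries (log2 fold change −0.80, SE 0.15, edgeR adjusted p = 0.0147), and the call was lost without BMDC-fer replicate 4 and in replicates 1 and 2 alone, where the value was −0.44 against −1.10 in replicates 3 and 4 alone. Rab11fip2, coding for a Rab11 effector, went from 9.31 ± 2.09 to 5.44 ± 0.363 CPM (log2 fold change −0.78, edgeR adjusted p = 0.0338), a call kept only without BMDC replicate 1 or 2 when a library was left out. Becn1 itself had a log2 fold change of −0.40, which is under the threshold of 0.58 for a call, at an edgeR adjusted p of 0.0237. Cyba, an oxidase subunit, had the highest value of the list at 0.48 and did not pass the test.

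SLAMF7 acts in engulfment together with the integrin Mac-1 and receptor chains that carry activation motifs. None of the 4 genes of this list (Itgam, Itgb2, Tyrobp and Fcer1g) was called by edgeR or by DESeq2. These fits called 9.38% and 14.7% of all tested genes. At an unadjusted p under 0.05, 1 was higher, but the share of all tested genes at this level was not counted. The groups overlapped for all 4, while they did not overlap for 22.9% of all tested genes. The log2 fold changes of the 4 lay between 0.26 for Tyrobp and 0.51 for Fcer1g.

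**Figure D4:**
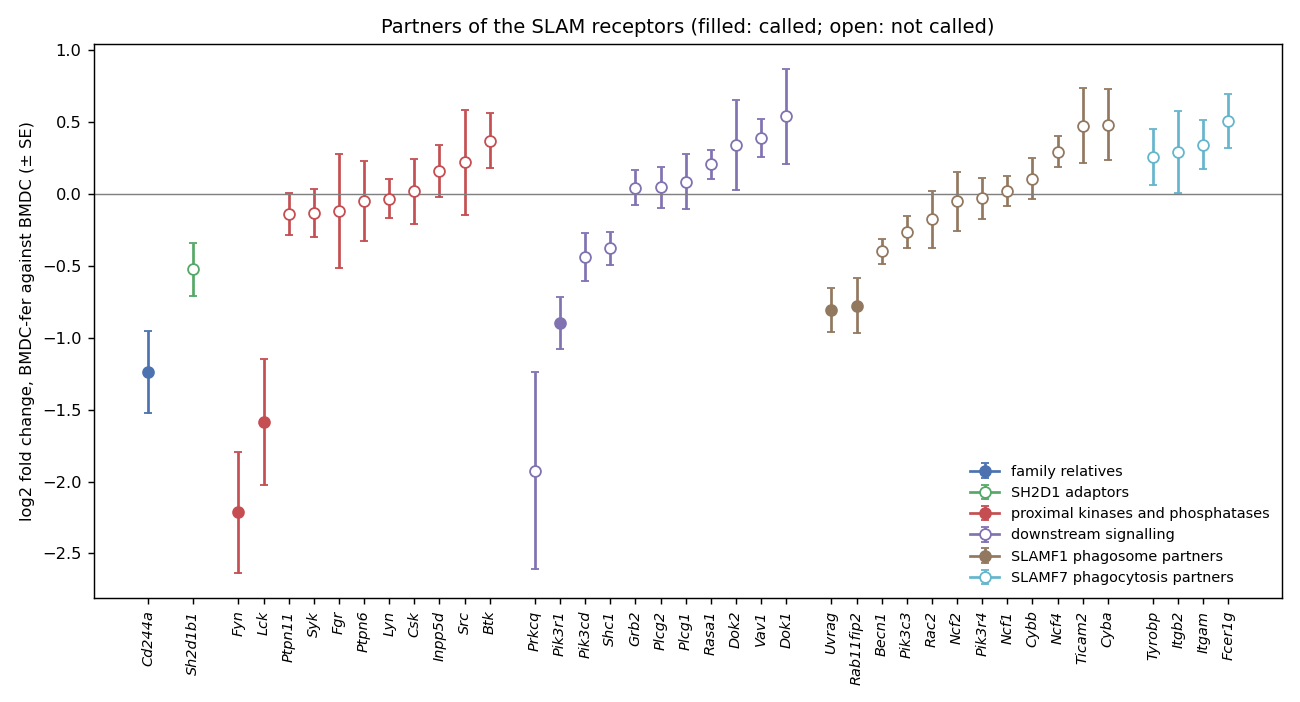
Log2 fold change (± SE) of BMDC-fer against BMDC for 40 of the 41 tested genes of the 6 partner lists, ordered within each list. Filled points are called; they are Cd244a, Fyn, Lck, Pik3r1, Uvrag and Rab11fip2, all below 0.

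Over these 6 lists, 45 symbols were listed, 44 were in the table and 41 were tested. Of these 41, 6 were called lower and 0 higher, which is 14.6% beside 9.38% of all tested genes in either direction and 5.91% lower. The median log2 fold change of the 41 was 0.02, and 35 of them did not pass the test. At an unadjusted p under 0.05, 3 were higher and 12 lower, but the share of all tested genes at this level was not counted. These 2 counts are therefore not read as a trait of the lists. DESeq2 and the edgeR fit with the block each called 0 higher and 7 lower. Over all tested genes these fits called 14.7% and 13.0% in either direction. The interaction of group with replicate pair (numbers 1 and 2 or 3 and 4) passed the test for 19 of the 41, beside 37.8% of all tested genes.

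Genes of dendritic cell maturation and cell type markers moved with the same contrast, and their values are given beside the members with lower values in BMDC-fer. Over all tested genes edgeR called 5.91% lower and 3.47% higher. In either direction, the edgeR fit with the block called 13.0% and DESeq2 14.7%. Of 11 tested mature dendritic cell genes, 6 were called lower and 0 higher, among them Ccr7, the receptor that guides dendritic cells to lymph nodes (log2 fold change −3.09), and Fscn1, which codes for the actin bundler fascin (−3.54). Their summed level was 1335 to 1583 CPM in BMDC and 315 to 729 CPM in BMDC-fer. Dendritic cell markers summed to 10168 to 20179 CPM in BMDC and 7446 to 11284 CPM in BMDC-fer, with Flt3 and Irf4 called lower among 10. Most of the sum was Cd74, H2-Aa, H2-Ab1, Csf2rb and Itgax, so it says little about the low markers. In BMDC-fer replicates 1 to 4, Flt3 held 22, 5, 8 and 6 counts and Cd209a 241, 68, 12 and 6 counts. Of the 10, 2 had log2 fold changes above 0, Csf2ra and Csf2rb. Neutrophil markers summed to 39.5 to 219 CPM in BMDC and 13.8 to 39.6 CPM in BMDC-fer, with 4 of 8 called lower. Mast cell and basophil markers summed to 32.5 to 64.9 and 14.5 to 33.0 CPM, and plasmacytoid dendritic cell markers to 12.7 to 24.9 and 1.81 to 10.7 CPM, with 0 genes called by edgeR in either list. The mast cell and basophil sum was mostly Gata2 and Kit, and Cpa3 reached at most 4.75 CPM in any library. The plasmacytoid sum was mostly Pacsin1 in BMDC replicates 1 and 2 (24.6 and 11.8 CPM). In BMDC replicates 3 and 4 it was mostly Cox6a2 (21.3 and 22.1 CPM). Of the 3 tested genes of that list, Ccr9 had a log2 fold change above 0, at 0.13. At an unadjusted p under 0.05, 2 mast cell and 1 plasmacytoid dendritic cell markers were lower, and DESeq2 called 2 and 0 of them. The edgeR fit with the block called 7 dendritic cell markers lower, among them H2-Aa, H2-Ab1 and Cd74 of antigen presentation, all 8 neutrophil markers, 8 mature dendritic cell genes, and Cpa3 and Pacsin1 of the mast cell and plasmacytoid lists. Of 11 macrophage markers, Adgre1 was called lower and 0 were called higher by edgeR or DESeq2. The other 10 had log2 fold changes above 0, 5 of them at an unadjusted p under 0.05. The median of the 11 was 0.49, beside 0.000687 over all tested genes. The share of all tested genes at an unadjusted p under 0.05 was not counted. Counts at that level are therefore not read as a trait of these lists. The part of these shifts in the values of Slamf1, Slamf9 and Cd244a was not tested.

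Across the 8 libraries, some members varied together. Pearson correlations of log2(CPM + 0.5) are given as descriptions, since the points share the contrast and the split between replicates 1 and 2 and replicates 3 and 4. Slamf1 correlated with Slamf9 at 0.95, with Slamf6 at −0.96 and with Cd84 at −0.90, and with Slamf8 at −0.08. Slamf8 correlated with Cd48 at 0.85. Among 12750 genes with a mean of at least 1 CPM, the profiles most like that of Slamf1 were Mycl (0.997), Il18rap (0.996), H2-DMb2 (0.994), Dpp4 (0.993) and Fnbp1l (0.993). Mycl codes for the transcription factor L-Myc, and it stood at 41.1, 28.5, 13.4 and 10.4 CPM in BMDC and at 5.89, 3.57, 1.17 and 1.07 CPM in BMDC-fer. The closest profile was Dnmt3a for Slamf8 (0.988), Fahd2a for Slamf9 (0.994), Idh3b for Ly9 (0.996), Aldh3b1 for Cd84 (0.993), Haus8 for Cd48 (0.992) and Gm43912 for Slamf7 (0.947).

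The protein-coding genes nearest to the members on the chromosome were Vangl2, Pigm, Vsig8, Gm10521, Igsf9, Itln1 and Fcrl6. Of these 7 genes, 5 were tested and 0 were called by edgeR without the block or by DESeq2. These fits called 9.38% and 14.7% of all tested genes. At an unadjusted p under 0.05, 1 was lower, but the share of all tested genes at this level was not counted. The lowest of the 5, Igsf9, codes for an adhesion molecule and lies beside Slamf9. Its log2 fold change of −1.34 did not pass the test (edgeR adjusted p = 0.166) but did once the replicate number was a block (0.0382). Itln1 had 0 counts in all 8 libraries.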

How the data were processed

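Mouse mRNA was measured in 4 BMDC and 4 BMDC-fer libraries, which were grouped by their sample labels. Per the labels, the submitters used CASAVA, HISAT2, featureCounts and DESeq2 with the build mm10. The paper adds that reads were counted on both the mouse and the human genome. The authors deposited raw counts per mouse gene, which were used without change. Annotation, strand and the treatment of reads with several positions are not given in the sources used here, and human counts were not analysed here.

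Symbols came from GENCODE M21 (GRCm38) for 55227 of 55487 identifiers. Total counts were between 39326672 and 50532209 per library, and 3 counts, or 0.0594 to 0.0763 CPM, were taken as the floor. In R 4.3.3, counts were normalized by TMM and tested with edgeR 4.0.16 (glmQLFit and glmQLFTest) after filterByExpr with a count minimum of 10, which kept 15411 genes. P-values were adjusted by Benjamini-Hochberg over all tested genes. Counts at an unadjusted edgeR p under 0.05 are given without the share of all tested genes at that level, which was not counted. Calls needed an adjusted p no higher than 0.05 together with a log2 fold change of at least 0.58 in size, as in the paper's methods. Exact permutation tests were two-sided on log2(CPM + 0.05). DESeq2 1.42.0, other scalings and filters, the replicate block, a covariate for the replicate pairs, each pair alone and each library left out were alternatives.

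No 2 libraries agreed within sampling noise. Replicates 1 and 2 separated from 3 and 4 within each group (first and second principal components, 39.9% and 38.4% of the variance), and the labels give no batch. Deviations from the group means correlated between same-numbered libraries at 0.313 to 0.445 over genes, between other numbers of the same replicate pair at 0.186 to 0.379 and across the pairs at −0.387 to −0.278. All 4 same-numbered correlations were over 0.1, and by this rule, not by a label, the numbers were taken as pairing the libraries. The first 2 ranges overlap, so these values do not tell pairing by number from the split of the replicate pairs. BMDC replicate 3 correlated at 0.342 with BMDC-fer replicate 4 and at 0.313 with BMDC-fer replicate 3. BMDC replicate 4 correlated at 0.379 with BMDC-fer replicate 3 and at 0.342 with BMDC-fer replicate 4. The replicate block therefore rests on an assumption.

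The members, the partner lists, the marker lists and the split into replicate pairs were chosen with earlier results of these data known. Named are the members, Cd244a, the highest and lowest gene and up to 4 called genes of each partner list, the adaptors, the chromosomal neighbors, the profiles most like each member and the defining markers, of which not all are given, and 2 genes that this rule covers are not reported here. Tests were tried on simulated counts. Start regions came from RefSeq (GRCm38.p6).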

Additional observations from a re-analysis of the deposited data

Results flagged for a closer look

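Of the members other than Slamf1, Ly9 had an effect in replicates 1 and 2 that differed from the effect in replicates 3 and 4. The same held for Cd244a. Slamf1 fell further in replicates 3 and 4, and the interaction was −2.41 on the log2 scale. This rests on 3 and 2 counts in BMDC-fer replicates 3 and 4 and on the contrast that chose the family, so no p is given. For Ly9 the interaction was −1.17 (edgeR adjusted p = 0.000736), from 0.95 in replicates 1 and 2 to −0.21 in replicates 3 and 4. For Cd244a it was 1.25 (edgeR adjusted p = 0.0191), from −1.84 to −0.58. Among the other genes whose fold change is given, the interaction passed for 8. It was −0.87 for Pik3r1, −0.66 for Uvrag and −1.61 for Ccr7, which fell further in replicates 3 and 4. It was 0.71 for Btk and 1.05 for Dok1, and −0.90 for Cyba, −0.72 for Tyrobp and −0.92 for Fcer1g. The same test passed for 37.8% of all tested genes. The labels name no factor that sets these libraries apart, and the split was taken from earlier results of these data. The p-values of the interaction are therefore descriptions. By Dixon's test, 0 of 20 sets of 4 values held an outlying library, where chance would give 1. The sets were the 8 members, Cd244a and Sh2d1b1, each in BMDC and in BMDC-fer. Where 4 values split by replicate pair, the test can hardly single out a library, so no conclusion is drawn from it.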

How the results depend on the processing

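Of all tested genes, 1445 were called, against 2261 with DESeq2, 2759 with DESeq2 and the replicate block, 2815 with the covariate for the replicate pairs, 3062 in replicates 1 and 2 alone, 5604 in replicates 3 and 4 alone, and between 565 and 1440 with a library left out. Of the members other than Slamf1, 1 was called, against 2 with DESeq2, 2 with the edgeR replicate block, 3 with DESeq2 and the block, 3 with the covariate, 4 and 2 in the replicate pairs alone, and between 0 and 1 with a library left out. Of the partner genes 6 were called, against 11 in replicates 3 and 4 alone and between 1 and 5 with a library left out. Signs turned for Slamf7 (−0.046 without scaling factors, −0.061 without BMDC-fer replicate 1, up to 0.14 with other libraries left out), Cd48 (−0.011 without scaling factors) and Ly9 (−0.21 in replicates 3 and 4 alone). Leaving out the scaling factors moved the median of all genes by −0.09. The Slamf1 value was −4.91 in replicates 3 and 4 alone, a fit that depends on the prior count. The edgeR fit with the replicate block, which assumes that the numbers pair the libraries, called 2000 genes. It added Slamf9 (−0.90) among the members and Prkcq among the partner genes, and it changed no other call of either. In the marker lists and among the neighboring genes it added the calls named beside them. Settings for the interaction were added after the data were seen. Slamf1 in BMDC-fer replicates 3 and 4 is at the limit of the depth. The causes were not tested.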
